A study of Mus musculus with 12 samples.

Results

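The genes described here are the metallothioneins Mt1 and Mt2, the metal-sensing transcription factor gene Mtf1, the efflux transporter genes Slc30a1 and Slc30a10, and the uptake transporter genes Slc39a4 and Slc39a14. A probe belonged to the set if the gene name in the array files was one of these 7 names, which gave 10 probes of 55681 and 7 genes of 34741. The genes were proposed with their values on these arrays in view, so every difference between arrays given for them is a description with no test. Where a gene had several probes, the probe with the highest mean level stood for it, and the other probes are reported beside it.

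The samples were livers of male ICR mice, an outbred strain, obtained at 5 weeks of age and given 1 week to adapt. By title, the groups were vehicle (water), all-trans-retinoic acid (ATRA, the acid form of vitamin A) at 30 mg/L, diethylnitrosamine (DEN, which liver enzymes turn into a DNA-damaging carcinogen) at 80 mg/L, ATRA+DEN, control siRNA and G0s2 siRNA, each at day 2 and at day 7. ATRA and DEN were given in drinking water, at about 150 and 400 µg per day, and the siRNAs, 1.6 nmol each in a lipid carrier, were injected into a vein. By protocol this came a day ahead of DEN, but the labels of the siRNA arrays name no DEN, so whether those mice drank it is not known. Each of the 12 groups was measured on 1 one-colour Agilent array, with no statement of whether its RNA came from 1 animal or several. For 3 day-7 arrays the treatment characteristic contradicts the title: the arrays titled DEN, ATRA+DEN and ATRA are there called ATRA, DEN and ATRA+DEN. Titles were used, and some values by the characteristic are given for Mt1, Mt2 and Slc39a4 only. Differences of other genes that use these 3 arrays also rest on the titles.

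Metallothioneins are small, cysteine-rich proteins of the cytosol that bind zinc, copper and cadmium. In the liver their genes are known to be switched on by zinc, by glucocorticoids and by acute-phase cytokines. Zinc acts through the protein encoded by Mtf1, which binds short metal response elements in the promoters of Mt1, Mt2 and Slc30a1. Transporters of the Slc30a family move metal out of the cytosol, and those of the Slc39a family move it in.

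RefSeq promoter windows, each running from 250 bases before to 50 bases after a gene's start on assembly GRCm38.p6, were at hand for 5 of the 7 genes, namely Mt1, Mt2, Mtf1, Slc30a1 and Slc30a10. Each window was searched on both strands for the metal response core, spelled TGCACNC or TGCGCNC. The windows of Mt1, Mt2, Slc30a1 and Slc30a10 held 3, 4, 2 and 3 matches, of which 2 in the Slc30a10 window overlapped each other. The Mtf1 window held 0. At least 1 match was found in 25.7% of 32851 windows, at least 3 in 1.97% and at least 4 in 0.517%. The 250 bases before the start are printed for Mt1 and Mt2, the genes that differed most between arrays, and for Slc30a1, which is known to share their regulator but varied far less. Capitals mark matches to the metal response core, and all windows lie on the + strand.
Mt1, chr8:94178839-94179088: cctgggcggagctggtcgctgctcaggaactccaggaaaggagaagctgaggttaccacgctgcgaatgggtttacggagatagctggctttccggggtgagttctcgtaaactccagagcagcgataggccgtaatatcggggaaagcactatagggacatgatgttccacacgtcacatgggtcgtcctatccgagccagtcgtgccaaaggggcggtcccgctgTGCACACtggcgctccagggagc
Mt2, chr8:94172368-94172617: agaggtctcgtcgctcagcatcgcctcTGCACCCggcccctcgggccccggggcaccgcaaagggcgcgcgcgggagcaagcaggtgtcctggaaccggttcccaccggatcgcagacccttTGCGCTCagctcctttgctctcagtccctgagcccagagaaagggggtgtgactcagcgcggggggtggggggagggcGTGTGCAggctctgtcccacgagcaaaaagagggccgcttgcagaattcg
Slc30a1, chr1:191906531-191906780: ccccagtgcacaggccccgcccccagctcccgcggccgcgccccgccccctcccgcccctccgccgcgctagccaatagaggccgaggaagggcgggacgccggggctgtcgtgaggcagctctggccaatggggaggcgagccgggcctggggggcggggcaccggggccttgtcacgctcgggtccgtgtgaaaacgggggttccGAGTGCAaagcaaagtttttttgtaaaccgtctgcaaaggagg

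The first 30 bases after the start held further matches in Mt1 and Mt2, again in capitals.
Mt1, chr8:94179089-94179118: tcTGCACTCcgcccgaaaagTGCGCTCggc
Mt2, chr8:94172618-94172647: ggtcGTGCGCAggcccaggggcgtgtgctg
The antioxidant response core, spelled TGACNNNGC, occurred once each in the Mt2 and Slc30a1 windows and in 12.4% of all windows. The retinoid half-site AGGTCA was found in 0 of the 5 windows and in 16.3% of all. A match is a stretch of letters, and no binding was measured here.

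Levels below are log2 processed intensities minus the 75th percentile of the same array, so a level of 0 is that percentile, and a level of 1 probe cannot be set against that of another. Probe positions are those of the array files, on mm9. The scanner software marked 41.0% to 50.7% of an array's probes as well above background, and the representing probes of all 7 genes on all 12 arrays. The arrays lay on 4 slides: slide 1 held the day-2 arrays without siRNA, slide 2 those with siRNA, slide 3 the vehicle and DEN arrays of day 7, and slide 4 the remaining 4 arrays of day 7. Every pair of arrays that differs by DEN or by G0s2 siRNA therefore shares a slide, whereas the ATRA pairs of day 7 span slides 3 and 4, and day and slide cannot be told apart. Slides 3 and 4 were also scanned on different days. All 10 hepatocyte markers were well above background on every array. The day-2 vehicle array stood apart in carrying all 11 pancreatic acinar markers above background, against 3 to 5 of them on each of the other arrays. It is the reference of the day-2 pairs without DEN or without ATRA, and its part in those differences was not tested.

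Mt1 was measured by a probe at chr8:96704165-96704224. At day 2 its level was 3.92 with vehicle, 4.08 with ATRA, 2.88 with DEN, 4.78 with ATRA+DEN, 3.80 with control siRNA and 3.29 with G0s2 siRNA. At day 7 it was 5.20 with vehicle, 4.93 with ATRA, 2.82 with DEN, 3.31 with ATRA+DEN, 8.83 with control siRNA and 8.05 with G0s2 siRNA. The 10 arrays other than the siRNA arrays of day 7 lay within 2.38 of each other, both DEN arrays were the lowest, and both siRNA arrays of day 7 lay far above all of them.

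Mt2, whose probe lay at chr8:96697371-96697430, had levels of 2.26 with vehicle, 4.19 with ATRA, 1.23 with DEN, 4.37 with ATRA+DEN, 2.69 with control siRNA and 2.01 with G0s2 siRNA at day 2. At day 7 its levels were 3.77, 5.65, 1.53, 2.61, 8.06 and 7.40 in the same order of groups. As for Mt1, both DEN arrays were lowest and both day-7 siRNA arrays highest, and next below these came the ATRA array of day 7. Over the 12 arrays the levels of Mt1 and Mt2 had a Pearson correlation of 0.95 and a Spearman correlation of 0.93, and over the 10 arrays without the siRNA arrays of day 7 a Pearson correlation of 0.87. These correlations are across arrays whose treatments differ, and are descriptions.

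**Figure D1:**
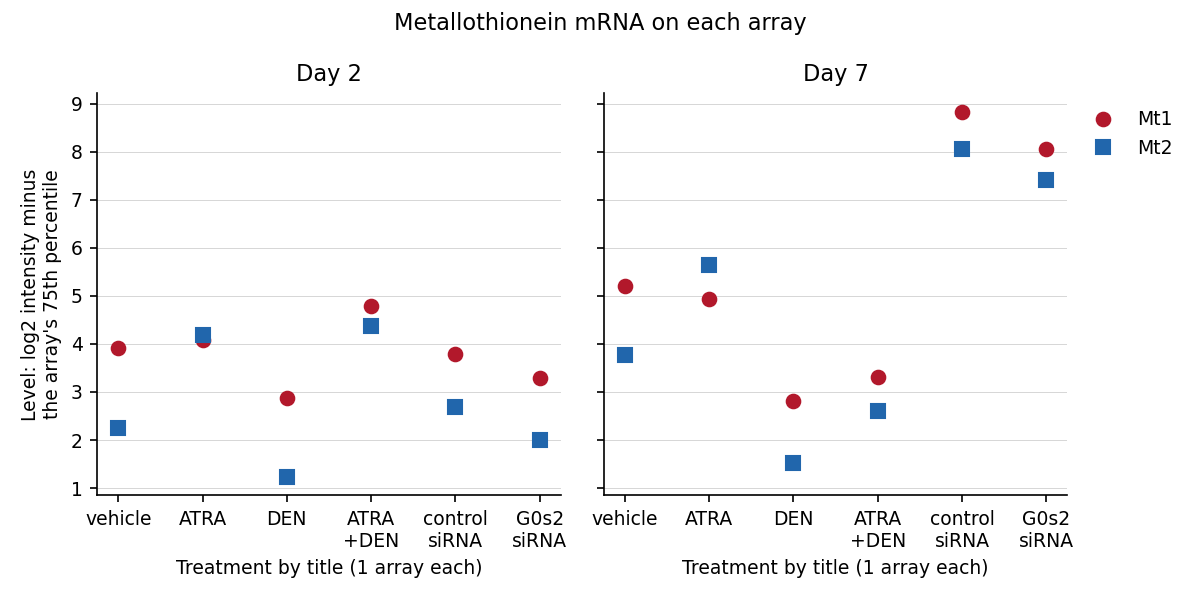
Levels of Mt1 (circles) and Mt2 (squares) on each of the 12 arrays, as log2 intensity relative to the array's 75th percentile, by titled treatment, with day 2 on the left and day 7 on the right; each point is 1 array and there are no error bars. Both siRNA arrays of day 7, at 8.83 and 8.05 for Mt1 and 8.06 and 7.40 for Mt2, lie above all other arrays, and both DEN arrays are the lowest for each gene.

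The widest difference of both metallothioneins separated the siRNA arrays of day 7 from the rest, whichever siRNA was injected. Against the mean of the ATRA and ATRA+DEN arrays on the same slide, Mt1 was higher by 4.72 with control siRNA and by 3.94 with G0s2 siRNA, a mean of 4.33 ± 0.55 (SD, n = 2 arrays) or 20.1-fold. Mt2 was higher by 3.92 and 3.27, a mean of 3.59 ± 0.47 (SD, n = 2 arrays) or 12.1-fold. Ordered by this mean, Mt1 came at rank 2 and Mt2 at rank 9 of 21186 genes tested. Both genes were at least 2-fold higher on each siRNA array of day 7 than on each of the 4 other arrays of that day, as were 0.618% of all genes. The other 5 genes of the set differed by between -0.32 and 0.48 in the same comparison.

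The difference belonged to day 7 and not to day 2. On the siRNA arrays of day 2, on a slide of their own, Mt1 differed from the mean of the 4 other day-2 arrays by -0.37 on average, and Mt2 by -0.67. Between day 2 and day 7, Mt1 was higher by 5.03 with control siRNA and 4.76 with G0s2 siRNA, 29.8-fold on average. Mt2 was higher by 5.37 and 5.39, or 41.6-fold. A difference of at least 16-fold upward with both siRNAs was seen for 3 genes of 21186, or 0.0142%, namely Mt1, Mt2 and Cplane1, a ciliary gene. That threshold was chosen after the values were seen. Without siRNA, Mt1 differed between the days by 1.28 with vehicle, 0.85 with ATRA, -0.05 with DEN and -1.48 with ATRA+DEN, a mean of 0.15 ± 1.22 (SD, n = 4 pairs).

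A second Mt1 probe, at chr8:96703844-96703903, was dim. It was well above background on 6 of 12 arrays, and at day 7 only on the siRNA arrays, where its levels were -2.47 with control siRNA and -1.89 with G0s2 siRNA against -5.58 to -3.58 on the other 4 arrays of that day. Within day 7 it thus placed the siRNA arrays above the rest, as the brighter probe did. Between the days it did not follow that probe: it differed by 0.56 with control siRNA and by 1.84 with G0s2 siRNA, and by -1.07 with vehicle, where the brighter probe differed by 5.03, 4.76 and 1.28. The size of the Mt1 difference between the days therefore rests on the brighter probe.

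Markers of other cells also moved with the siRNA arrays of day 7. The summed level of 6 red cell markers was 7.47 to 7.64 there, against 4.63 to 6.70 on the other arrays of the day. That of 11 pancreatic acinar markers was 4.21 to 4.76 against 2.75 to 3.10, with 5 of 11 above background against 3 or 4 of 11. The sinusoidal endothelium sum was 6.91 on both against 5.91 to 6.71, and the neutrophil sum 3.61 on both against 3.10 to 3.59. The stellate cell sum was 4.24 to 4.54 against 4.53 to 5.26. The ranges of the Kupffer cell and macrophage, intestinal and cholangiocyte sums overlapped. The hepatocyte markers summed to 13.01 to 13.24 against 13.01 to 13.29. The part of these cells in the metallothionein levels was not tested, and in whole liver RNA fewer cells of a type and less RNA per cell cannot be told apart. The vehicle array of day 2, with red cell and acinar sums of 7.36 and 5.94, had Mt1 at 3.92 and Mt2 at 2.26.

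**Figure D2:**
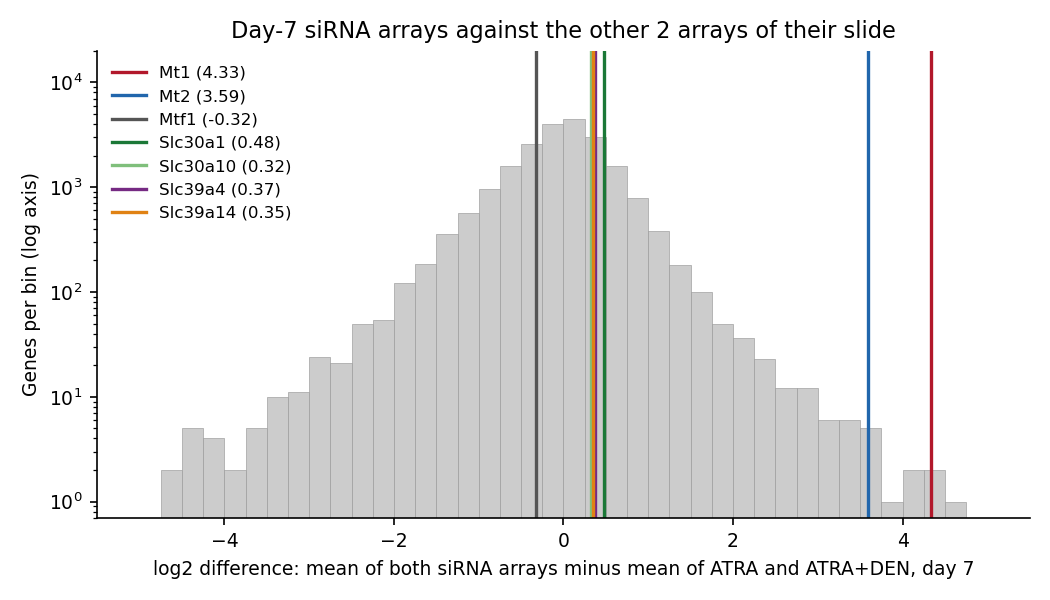
Distribution over 21186 genes of the log2 difference between the mean of both siRNA arrays of day 7 and the mean of the ATRA and ATRA+DEN arrays on the same slide, with genes per bin of 0.25 on a log axis; coloured lines mark the 7 genes. Mt1 at 4.33 and Mt2 at 3.59 lie in the far right tail, and the other 5 lie between -0.32 and 0.48.

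With ATRA, Mt2 was higher in all 4 pairs of arrays and Mt1 was not. The Mt2 difference was 1.94 at day 2 without DEN, 3.15 at day 2 with DEN, 1.88 at day 7 without DEN and 1.08 at day 7 with DEN, a mean of 2.01 ± 0.85 (SD, n = 4 pairs) or 4.03-fold. Of the 7 genes, Mt2 alone was at least 2-fold higher on average with the same sign in every pair (called the 2-fold rule below), as were 0.538% of all genes, and it came at rank 14 of 21186. Within slide 1, that is at day 2 alone, its mean was 2.54 ± 0.86 (SD, n = 2 pairs).

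Mt1 differed by 0.16, 1.90, -0.27 and 0.48 in the same order of pairs, a mean of 0.57 ± 0.94 (SD, n = 4 pairs), which is smaller than its spread. The ATRA difference of Mt2 exceeded that of Mt1 in every pair, by 1.78, 1.24, 2.15 and 0.60, a mean of 1.44 ± 0.67 (SD, n = 4 pairs). Both probes were read on the same arrays, so subtracting a constant from an array leaves this gap unchanged. Methods that act by intensity can change it. The mean ATRA differences of Mt2 and Mt1 were 2.03 and 0.57 with quantile normalization. With normexp background correction they were 1.98 and 0.60. No gene passed limma's test of ATRA at an adjusted p under 0.05, while 1231 of 21186 had an unadjusted p under 0.05.

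The ATRA titles were checked on a list of 10 retinoid-responsive genes, 9 of them tested. Of these 8 were higher on average with ATRA, 4 of them at least 2-fold in every pair by sign, and the list's median difference was 0.60 against 0.00 for all genes. Cyp26a1, an enzyme that degrades retinoic acid, was higher by 6.21, 4.53, 4.72 and 2.98, so by title every ATRA array carried more of it than its partner. Lrat, which stores vitamin A as esters, was higher by 1.84 ± 0.33 (SD, n = 4 pairs). If the day-7 arrays are grouped by the treatment characteristic, the mean ATRA difference of Mt2 is 1.47 and that of Mt1 0.33, and the array then called ATRA differs from vehicle at day 7 by -2.24 for Mt2.

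With DEN and no ATRA, both metallothioneins were lower at both days. Mt1 differed by -1.04 at day 2 and by -2.37 at day 7, a mean of -1.71 ± 0.95 (SD, n = 2 pairs) or 3.26-fold lower. Mt2 differed by -1.03 and -2.24, a mean of -1.63 ± 0.85 (SD, n = 2 pairs) or 3.10-fold lower. Being at least 2-fold lower with DEN than with vehicle at both days was shared by 0.727% of all genes, and among the 7 by Mt1 and Mt2. Both pairs lay within a slide. Marker sums of several cell types, hepatocytes among them, were lower with DEN in both of the same pairs. The hepatocyte sum was 13.48 against 13.85 at day 2 and 13.23 against 13.29 at day 7. The Kupffer cell and macrophage sum was 5.73 against 5.86 and 6.00 against 6.21. The red cell sum was 5.77 against 7.36 at day 2 and 4.63 against 5.42 at day 7, and the neutrophil sum 3.47 against 3.87 and 3.10 against 3.59. The sinusoidal endothelium sum was 7.01 against 7.26 and 5.91 against 6.71. The acinar, intestinal, cholangiocyte and stellate cell sums were lower with DEN at day 2 and higher at day 7. At day 7 they were 3.10 against 2.90, 6.45 against 6.39, 1.22 against 0.67 and 4.66 against 4.53. The part of any of these cells in the metallothionein levels with DEN was not tested.

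On top of ATRA, the DEN differences of Mt1 and Mt2 took opposite signs at the 2 days. At day 2 Mt1 was higher by 0.71 and Mt2 by 0.18 with ATRA+DEN than with ATRA, whereas at day 7 Mt1 differed by -1.62 and Mt2 by -3.04. Over all 4 pairs the mean was -1.08 ± 1.31 for Mt1 and -1.53 ± 1.41 for Mt2 (SD, n = 4 pairs), smaller than the spread for Mt1 and close to it for Mt2. Neither gene met the 2-fold rule, which 0.670% of genes met downward. The difference between the DEN effect with and without ATRA was 1.75 at day 2 and 0.75 at day 7 for Mt1, and 1.21 and -0.80 for Mt2. Against vehicle, ATRA+DEN had Mt1 higher by 0.87 and Mt2 by 2.11 at day 2, and the same differences at day 7 were -1.89 and -1.15. These comparisons reuse the same arrays and are given side by side only.

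No gene passed limma's test of DEN at an adjusted p under 0.05, with 2599 of 21186 at an unadjusted p under 0.05, and 0 passed that of the DEN by ATRA interaction, with 767. All 12 p53 targets listed to check the DEN titles were higher with DEN on average, with a median of 2.31 against -0.02 for all genes. Phlda3, a p53-induced inhibitor of Akt signalling, was higher by 5.01, 4.69, 6.95 and 6.91 in the 4 pairs. By the treatment characteristic the mean DEN difference turns to 0.53 for Mt2 and -0.03 for Mt1, with day-7 differences of -1.15 and 4.12 for Mt2 and of -1.89 and 2.11 for Mt1 in the pairs without and with ATRA. The lower level at day 7 without ATRA therefore holds by either label, and the direction with ATRA rests on the titles.

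**Figure D3:**
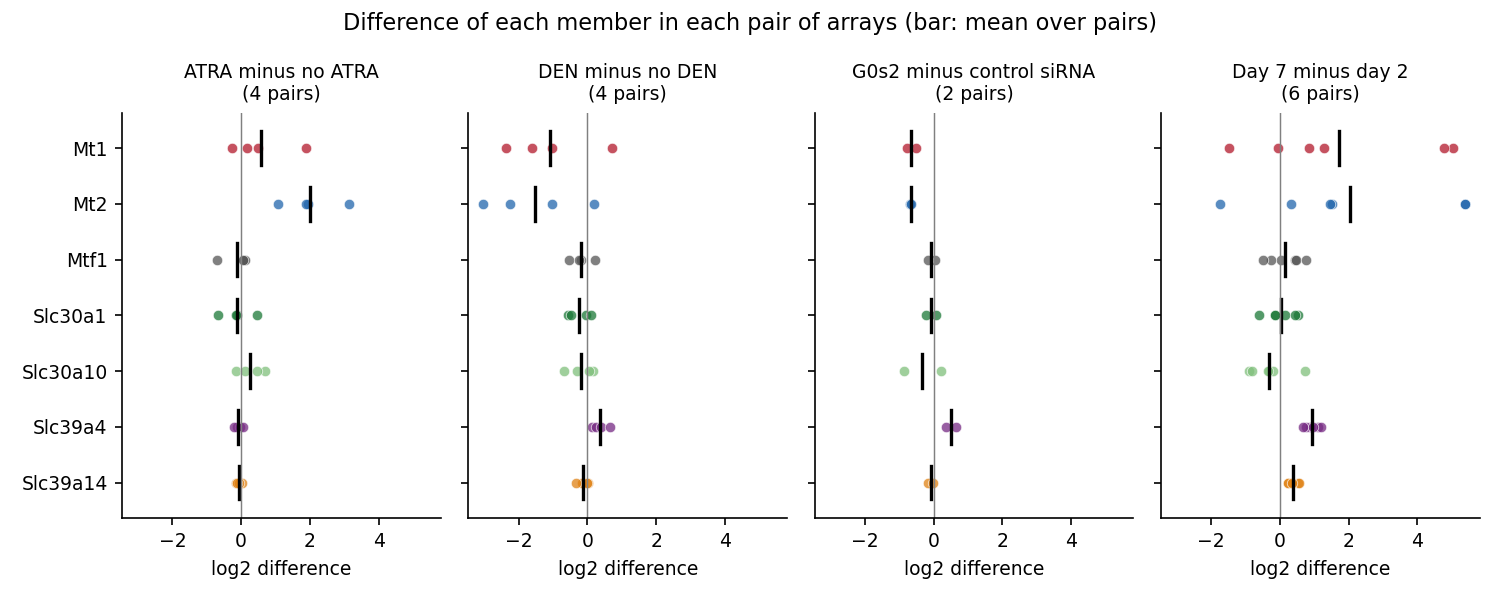
Log2 difference of each of the 7 genes in every pair of arrays, with ATRA minus no ATRA and DEN minus no DEN (4 pairs each), G0s2 minus control siRNA (2 pairs) and day 7 minus day 2 (6 pairs); points are pairs and black bars are means. Mt2 is above 0 in all 4 ATRA pairs, from 1.08 to 3.15, and the only points beyond 4 are the siRNA pairs of Mt1 and Mt2 in the day panel.

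G0s2, the gene targeted by the siRNA and an inhibitor of the triglyceride lipase ATGL, had a level of 1.99 with G0s2 siRNA against 3.84 with control siRNA at day 2, and of 2.26 against 3.45 at day 7. Mt1 differed by -0.51 at day 2 and by -0.78 at day 7 with G0s2 siRNA, and Mt2 by -0.68 and -0.66. On these probes both metallothioneins were lower in both pairs, by 1.56-fold and 1.59-fold on average. The second Mt1 probe, detected on both siRNA arrays of day 7, had the opposite order there, at -1.89 with G0s2 siRNA and -2.47 with control siRNA. Neither gene met the 2-fold rule, which 1.53% of genes met downward. A lower level in both pairs, by any amount, was seen for 20.7% of all genes. The summed level of 7 Kupffer cell and macrophage markers, all above background on every array, was also lower with G0s2 siRNA, at 7.31 against 7.91 at day 2 and 5.57 against 6.37 at day 7, and its part in these differences was not tested. On the 4 other arrays of day 2 that sum was 5.73 to 5.86. Slc39a4 was higher with G0s2 siRNA by 0.66 and 0.35, a sign shared in both pairs by 36.4% of all genes, and the other 4 genes had differences between -0.87 and 0.20. No gene passed limma's adjusted p under 0.05 for G0s2 siRNA, with 1438 of 21186 at an unadjusted p under 0.05.

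Mtf1 varied little. Its brightest probe, at chr4:124526365-124526424, had levels of 0.57 with vehicle, 0.65 with ATRA, 0.79 with DEN, 0.10 with ATRA+DEN, 1.03 with control siRNA and 1.08 with G0s2 siRNA at day 2, and of 1.00, 1.11, 0.82, 0.87, 0.76 and 0.58 at day 7. The lowest array was ATRA+DEN of day 2, and the siRNA arrays of day 7, highest for Mt1 and Mt2, were among the lower ones here. Its mean difference was -0.12 ± 0.39 with ATRA and -0.19 ± 0.32 with DEN (SD, n = 4 pairs each).

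The probes of Mtf1 disagreed on the change with day. The brightest probe was higher at day 7 in the 4 pairs without siRNA, by 0.42 ± 0.30, and lower in both siRNA pairs, at -0.38 on average. Another probe, well above background on all 12 arrays, was lower at day 7 in 6 of 6 pairs, at -0.48 ± 0.24 (SD), with levels of -1.24 to -0.95 at day 2 and -1.82 to -1.27 at day 7. The remaining probe was not well above background on any array. No direction with day is therefore given for Mtf1.

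Slc30a1 encodes the zinc exporter of the plasma membrane, and its probe lay at chr1:193736760-193736819. Its levels at day 2 were 2.20 with vehicle, 2.07 with ATRA, 2.17 with DEN, 1.50 with ATRA+DEN, 2.27 with control siRNA and 2.04 with G0s2 siRNA. At day 7 they were 2.06, 1.92, 1.57, 2.03, 2.41 and 2.49. The siRNA arrays of day 7 were again the highest, but by 0.44 and 0.52 over the mean of the other arrays of the slide, 1.39-fold on average. Within day 7 its Pearson correlation with Mt1 over 6 arrays was 0.90, and within day 2 it was -0.68, so the likeness held in 1 set of arrays only.

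Slc30a10 encodes a manganese exporter, and its probe lay at chr1:187292107-187292166. Its levels at day 2 were 0.82 with vehicle, 1.50 with ATRA, 0.99 with DEN, 0.83 with ATRA+DEN, 1.18 with control siRNA and 0.31 with G0s2 siRNA. At day 7 they were 0.50, 0.60, 0.19, 0.63, 0.83 and 1.03. Its span over 12 arrays, 1.31, came from the ATRA array of day 2 and the DEN array of day 7, and no treatment shifted it in the same direction in every pair.

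Slc39a4 encodes a zinc importer best known from the intestine, and its probe lay at chr15:76442866-76442925. Its levels at day 2 were 5.98 with vehicle, 5.85 with ATRA, 6.11 with DEN, 6.09 with ATRA+DEN, 6.18 with control siRNA and 6.85 with G0s2 siRNA. At day 7 they were 6.84, 6.62, 7.23, 7.28, 7.15 and 7.50. Apart from G0s2 siRNA at day 2 and ATRA and vehicle at day 7, the days did not overlap, and in each treatment day 7 was higher, by 0.93 ± 0.20 (SD, n = 6 pairs). With DEN the level was higher by 0.13, 0.24, 0.39 and 0.66, a mean of 0.36 ± 0.23 (SD, n = 4 pairs), a sign shared in every pair by 9.17% of all genes. By the treatment characteristic the day-7 differences are 0.45 and -0.61, so that shared sign rests on the titles. Its ATRA differences, from -0.21 to 0.05, had no common sign. Of 6 intestinal markers 1 was above background on each array. Vil1, Lct, Sis, Cdx2 and Alpi were above background on no array, so the summed level, 6.12 to 6.97, rested on the remaining marker. That sum was the highest of its day on both G0s2 siRNA arrays, at 6.47 and 6.97, where Slc39a4 was also highest, and its part in the Slc39a4 level was not tested.

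Slc39a14 encodes an importer of zinc, iron and manganese in hepatocytes, and its probe lay at chr14:70703394-70703453. Its levels at day 2 were 3.27 with vehicle, 3.30 with ATRA, 3.11 with DEN, 2.96 with ATRA+DEN, 3.68 with control siRNA and 3.53 with G0s2 siRNA. At day 7 they were 3.61, 3.55, 3.63, 3.52, 3.90 and 3.87. It was higher at day 7 in all 6 pairs, by 0.37 ± 0.14 (SD), and on both siRNA arrays than on the 4 other arrays of the same day, at day 2 by 0.44 and at day 7 by 0.31 on average. With ATRA and DEN it differed by -0.07 ± 0.08 and -0.13 ± 0.16 (SD, n = 4 pairs each).

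The day differences of both uptake transporters have to be read against the whole array. A difference of the same sign in all 6 day pairs was found upward for 25.0% of all genes, and the median gene was higher at day 7 by 0.11. That median was 0.36 when arrays were scaled on their median and 0.03 after quantile normalization. Relative to it, Slc39a4 was higher by 0.82, 0.82 and 0.61 under the 75th percentile, the median and quantile normalization. Slc39a14 was higher by 0.26, 0.26 and 0.08.

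**Figure D4:**
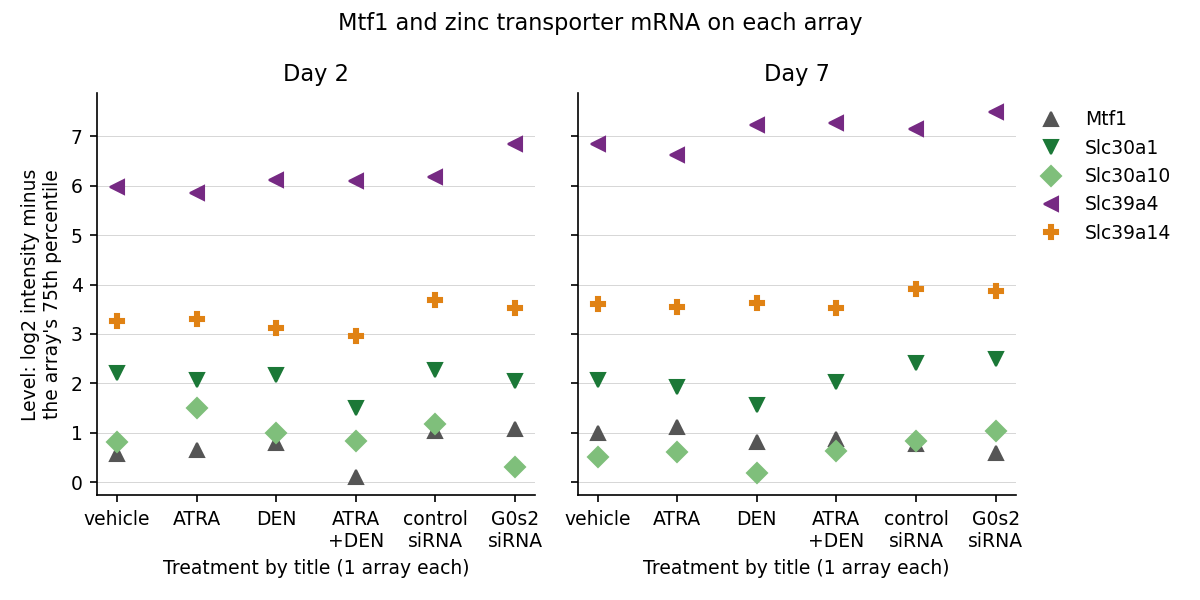
Levels of Mtf1, Slc30a1, Slc30a10, Slc39a4 and Slc39a14 on each of the 12 arrays, as log2 intensity relative to the array's 75th percentile, by titled treatment, with day 2 on the left and day 7 on the right; each point is 1 array and there are no error bars. Slc39a4 lies at 5.85 to 6.85 at day 2 and at 6.62 to 7.50 at day 7, and on the day-7 siRNA arrays these genes differ from the other arrays of the slide by -0.32 to 0.48.

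Among 20 other zinc transporters of both families, 16 were tested. With ATRA, DEN or G0s2 siRNA 0 of 16 passed limma's test, as for all genes, and 0 met the 2-fold rule. Their median differences were 0.07, -0.07 and 0.12, against 0.00, -0.02 and 0.06 for all genes tested. With day 4 of 16 rose and 1 fell at an adjusted p under 0.05, as did 46.8% of all genes, 26.3% upward and 20.5% downward. Slc30a9 rose by 0.68 (adjusted p = 0.0107) and Slc39a13, an importer of the early secretory pathway, by 0.66 (adjusted p = 0.0077), both in limma's fit. With DEN, Slc30a7, which loads zinc into the Golgi, was lower in all 4 pairs, at -0.65, -0.14, -1.70 and -1.42. Slc39a11 differed by -0.58 ± 0.25 and Slc30a5, another Golgi transporter, by -0.38 ± 0.22 (SD, n = 4 pairs each). Both were lower in every pair, as were 12.5% of all genes. On the siRNA arrays of day 7, 7 of 16 were higher and 9 lower than on the other arrays of the slide, with a median of -0.04, and 0 were at least 2-fold above each of the 4 other arrays of the day.

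Mt3, the metallothionein best known from brain, was well above background on all 12 arrays, at levels of 0.10 to 0.92. Its lowest level was that of the G0s2 siRNA array of day 7, where Mt1 and Mt2 were near their highest. Mt4 was above background on 1 array and was not tested. On the day-7 siRNA arrays Mt3 differed from the other arrays of the slide by -0.28, where Mt1 and Mt2 differed by 4.33 and 3.59.

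Among 24 genes of copper, iron and manganese handling, all tested, 0 passed limma's test with ATRA, DEN or G0s2 siRNA. With ATRA, Bmp6, the endothelial signal that induces hepcidin, was higher by 1.23, 0.75, 0.74 and 1.40, and was the 1 gene of the list to meet the 2-fold rule. Hamp, which encodes hepcidin, was higher by 0.52 ± 0.47 (SD, n = 4 pairs). With DEN, Slc11a2, an importer of ferrous iron, differed by -0.71 ± 0.50 (SD, n = 4 pairs). With day 8 of 24 rose and 3 fell in limma's fit, beside 26.3% and 20.5% of all genes, among them Hamp by 1.44 (adjusted p = 0.0026) and the copper importer Slc31a1 by 0.69 (adjusted p = 0.0016). On the siRNA arrays of day 7 the list's median difference was 0.08, and 0 of 24 were at least 2-fold above each of the 4 other arrays of the day, as Mt1 and Mt2 were.

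Lists for stimuli known to act on metallothionein genes were counted in the same comparisons. They were chosen with earlier results of these data known. Of 15 glucocorticoid-responsive genes, 14 were higher on the siRNA arrays of day 7 than on the other arrays of the slide, with a median of 0.49 against 0.00 for all genes. Sult1e1, an estrogen sulfotransferase, and Fkbp5, a chaperone of the glucocorticoid receptor, lay at least 2-fold above all 4 other arrays of the day. That held for 0.618% of all genes, and their differences on the slide were 3.49 and 1.85. Sult1e1 was well above background on 4 arrays only. With DEN 13 of the 15 were lower on average, with a median of -0.43 against -0.02, and with ATRA 10 were higher, with a median of 0.10. Mfsd2a, a lipid transporter of the list, differed with DEN by -2.33, -4.43, -2.31 and -0.65. In limma's fits 0 of the 15 passed with ATRA, DEN or G0s2 siRNA, and 6 rose with day, as did 26.3% of all genes.

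Of 24 acute-phase genes tested, 16 were higher and 8 lower on the siRNA arrays of day 7, with a median of 0.08. Serpina3n, a protease inhibitor of the acute phase, was the 1 gene of the list at least 2-fold above each other array of the day. It differed by 1.52 on the slide, and 0.618% of all genes met the same 2-fold call. With G0s2 siRNA, where Mt1 and Mt2 were lower, 16 of 24 were higher on average, with a median of 0.14 against 0.06 for all genes. Of all genes, 36.4% were higher in both pairs and 20.7% lower in both. Among the 16 were Saa3, by 2.80 and 0.67, and Lcn2, an iron-siderophore binder that the glucocorticoid list also holds, by 1.40 and 1.02. Both met the 2-fold rule, which 1.85% of all genes met upward. None of the 24 passed limma's test with ATRA, DEN or G0s2 siRNA, and with day 5 rose and 3 fell, where 26.3% and 20.5% of all genes did.

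Of 20 genes of oxidant defence tested, 17 were higher on the siRNA arrays of day 7, with a median of 0.31, and 0 were at least 2-fold above each other array of the day. With DEN, where Mt1 and Mt2 were lower in 3 of 4 pairs, 3 of the 20 met the 2-fold rule upward, against 0.835% of all genes. They were Nfe2l2, which encodes the factor NRF2, at 1.42 ± 0.73, the glutathione transferase gene Gsta2 at 1.30 ± 1.20 and the quinone reductase gene Nqo1 at 1.01 ± 0.44 (SD, n = 4 pairs each). In limma's fits 0 of the 20 passed with ATRA, DEN or G0s2 siRNA, and 9 rose with day, against 26.3% of all genes. On the siRNA arrays of day 7 all 9 retinoid-responsive genes were lower than on the same slide's other arrays, with a median of -1.21. Those arrays, ATRA and ATRA+DEN, both carried ATRA by title. In the same comparison 11 of 12 p53 targets were higher, with a median of 0.97. The median difference of these targets with DEN was 2.31, and of the reference only the ATRA+DEN array carried DEN by title. Whether the mice of the siRNA arrays drank DEN is not known.

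The probes most like each metallothionein over the 12 arrays were sought among 6782 genes that were well above background on all arrays and spanned at least 1. For Mt2 the first was a probe named Pip5k1a, a lipid kinase gene, with a Pearson correlation of 0.985 and a Spearman correlation of 0.986. The correlation was 0.980 without the siRNA arrays of day 7, 0.985 within day 2 and 0.993 within day 7. The next were Mt1 at 0.950, Gle1 at 0.931, Cited4 at 0.917 and Rab20 at 0.911. For Mt1 the same Pip5k1a probe came first at 0.964, followed by Mt2, Acadsb at 0.942, Smpd2 at 0.942 and Cyp2d22 at 0.939. Without the siRNA arrays of day 7 those of Acadsb, Smpd2 and Cyp2d22 were 0.639, 0.730 and 0.550, so much of their likeness to Mt1 rested on 2 arrays.

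The Pip5k1a likeness belonged to 1 probe of 3. That probe, of a transcript model at chr3:94901128-94901187 on the - strand, had levels of 1.50 with vehicle, 2.52 with ATRA, 1.14 with DEN, 2.58 with ATRA+DEN, 1.55 with control siRNA and 1.32 with G0s2 siRNA at day 2, and of 2.11, 3.67, 0.99, 1.55, 5.99 and 5.28 at day 7. The DEN arrays were thus the lowest and the siRNA arrays of day 7 the highest, as for Mt2. Another probe, well above background on all 12 arrays and assigned to the RefSeq transcript of the gene, stayed between 0.33 and 0.77. Its Pearson correlation with Mt2 was 0.542. The third was above background on 6 arrays, at a correlation of -0.041.

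The 60 bases of the probe that followed Mt2 are shown because they are rich in cysteine codons, as metallothionein coding sequences are known to be. Capitals mark the cysteine codons in reading frame 3, counted from the first base.
Pip5k1a probe, chr3:94901128-94901187: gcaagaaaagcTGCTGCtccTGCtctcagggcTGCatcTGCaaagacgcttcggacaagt
That frame holds 5 cysteine codons (TGC or TGT) in 19, and 0.758% of all 55681 probes hold as many or more in their best frame. The other probe of the gene that was measured on all arrays holds 1 in 20. Whether metallothionein transcripts bind this probe was not tested, and no metallothionein coding sequence was compared with it here.

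**Figure D5:**
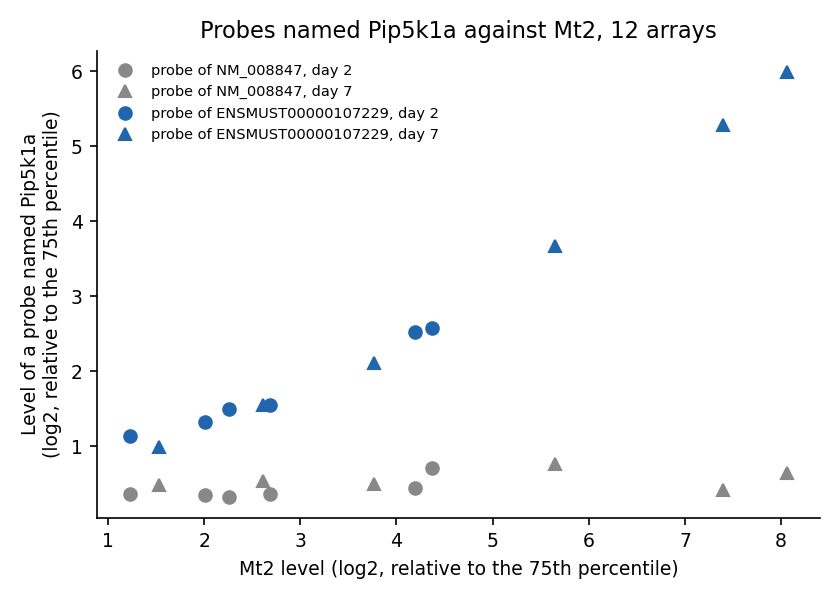
Level of both well-measured probes named Pip5k1a against the level of Mt2 on the 12 arrays, each as log2 intensity relative to the array's 75th percentile; circles are day 2, triangles day 7, blue the probe that followed Mt2 and grey the other. The blue points climb from 0.99 to 5.99 with Mt2, and the grey points stay between 0.33 and 0.77.

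For Slc39a14 the 5 most similar genes were Arhgef26 at a Pearson correlation of 0.964, Jdp2 at 0.956, Thap1 at 0.949, Angptl4 at 0.943 and Ucp2 at 0.941. Without the arrays farthest from its median, DEN and ATRA+DEN of day 2, these were between 0.888 and 0.932. Within day 7 alone they ranged from 0.775 for Ucp2, the mitochondrial uncoupling protein, to 0.965 for Arhgef26. The arrays share slides and normalization, so likeness across them is a description.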

How the data were processed

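Livers were measured on 12 one-colour Agilent arrays, 1 per group. The authors deposited scanner output, whose processed intensity is background-subtracted by Agilent Feature Extraction 10.7.1.1 per the file headers (9.5.1.1 per the submitters' processing notes), and a table of intensity values that, tested on its values, was quantile-normalized within each day. Here, non-control spots were averaged per probe, and each array's 75th percentile of log2 processed intensity was subtracted. The 21186 genes detected well above background on 2 or more arrays were tested with limma 3.58.1 (lmFit, eBayes, Benjamini-Hochberg adjustment) in R 4.3.3. The fits were run on simulated data without slide effects and, except for the interaction, with generally less noise between pairs than in the data. That run therefore does not measure how often these fits miss a gene or call one wrongly. With 1 array per group, the residual spread came from terms left out of each model, and the number of arrays limits the precision. Each ATRA, DEN, G0s2 siRNA and day difference is averaged over the array pairs that differ by 1 factor by title, with its SD across pairs. That spread may be technical, since separate animals are not stated.

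The 7 genes and all lists were chosen with earlier results of these data known. The lists hold other zinc transporters, other metallothioneins, copper, iron and manganese handling, glucocorticoid, acute-phase, oxidant-defence and retinoid genes, p53 targets and cell type markers. From each list, up to 4 genes were named per comparison, those with the largest mean difference among genes detected on every array compared and moving alike in all pairs. Sult1e1, Cplane1, Serpina3n, Fkbp5 and the other probes named Pip5k1a were singled out after their values were seen. For Mt1, Mt2 and Slc39a14 the 5 genes with the highest Pearson correlation were named. Of 55681 probes, 27235 took their gene name from RefSeq by accession, 3581 by symbol and 565 by synonym, and 24300 kept the array file's name. Alternatives were normexp background correction (offset 50), quantile and median scaling, the deposited table, other filters and probe rules, slide or day as a block, the treatment characteristic, and leaving out each pair. Promoter windows on chromosome 18 were left out. Protein sequences were not analysed here.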

Additional observations from a re-analysis of the deposited data

Results flagged for a closer look

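For Mtf1 the difference between day 7 and day 2 had opposite signs with and without siRNA. Its brightest probe was higher at day 7 in all 4 pairs without siRNA, with a mean of 0.42, and lower in both siRNA pairs, with a mean of -0.38. The difference between the 2 kinds of pair was not tested. Another Mtf1 probe, above background on all arrays, was lower at day 7 in 6 of 6 pairs. No other gene of the 7 had every siRNA pair on one side of 0 and every other pair on the opposite side.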

How the results depend on the processing

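No pairing by replicate number was possible because each group has 1 array. The ATRA, DEN, G0s2 siRNA and day differences were taken between arrays that differ by 1 factor by title. The ATRA pairs of day 7 and all day pairs also differ by slide and scan day. The comparisons of siRNA arrays with other arrays, and of ATRA+DEN with vehicle, differ by more than 1 treatment. In limma's fits of ATRA, DEN and G0s2 siRNA these pairs of arrays were blocks. Over the alternatives run, 455 of 483 values of the 7 genes moved by less than 1 SD over pairs and 28 moved by more. Many of the 455 were fixed in advance. Leaving out a pair or taking only some pairs cannot move a mean by 1 SD. Gene filters, fits on fewer arrays and day as a block left these values unchanged. The count therefore does not measure how firm the values are. Of the 483, 21 changed sign, none of them a mean of at least 2-fold except that of Mt2 with DEN. Leaving out 1 pair at a time put the Mt2 difference with ATRA between 1.63 and 2.32, and its mean with DEN between -2.10 and -1.03. By the treatment characteristic the DEN difference of Mt2 was 0.53, and the DEN by ATRA interaction was 2.87 for Mt1 and 3.24 for Mt2. The G0s2 siRNA difference of Mt2 was -0.71 with normexp, -0.79 with quantile normalization, -0.76 with median scaling and -0.78 in the deposited table, each outside an SD of 0.02 over 2 pairs. Averaging over both Mt1 probes gave -0.35 for G0s2 siRNA and 3.36 for the siRNA arrays of day 7. With normexp, limma's adjusted p was under 0.05 for 13 genes with DEN and 4 with G0s2 siRNA, and with day as a block for 1 in the interaction. Without 1 siRNA pair, 0 to 1 genes passed for G0s2 siRNA. Counts of genes meeting the 2-fold rule moved most, and were lowest with normexp except upward with DEN, where the treatment characteristic gave the lowest. Over all alternatives they ranged from 15 to 402 upward (114 as reported) and 9 to 328 downward (102) with ATRA. With DEN they ranged from 51 to 329 upward (177) and 32 to 336 downward (142), and with G0s2 siRNA from 66 to 1309 (391) and 48 to 877 (325). Genes passing limma's test of day numbered 9919, with a range of 7902 to 11556. The causes were not tested.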
